A study of Mus musculus with 16 samples.

Results

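Olfactory bulb transcripts were unevenly present among 16 samples of mouse medial prefrontal cortex (mPFC), and 5 of the 16 samples were bulb-rich. Samples were selected on the normalized read count of Eomes, a T-box transcription factor gene of bulb projection neurons: those with a value of 100 or more were called bulb-rich, and the other 11 were called bulb-poor. Eomes was 899 in WT-Veh replicate 1, 857 in WT-Flx replicate 4, 318 in WT-Flx replicate 2, 240 in HT-Veh replicate 4 and 149 in WT-Flx replicate 1, the sample just inside the limit. WT-Flx replicate 3 was just outside, at 25.3, and the other 10 samples lay between 0 (HT-Flx replicate 3, where the gene was listed at 0) and 14.8 (WT-Veh replicate 3). Because Eomes chose the samples, it is left out of the counts of higher and lower genes, and the difference between bulb-rich and bulb-poor samples is described for every other gene without a p-value.

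The samples came from male C57BL/6N mice at postnatal day (P) 120, with 4 samples in each of 4 groups and each sample taken as 1 mouse. WT-Veh and WT-Flx mice were wild type, and HT-Veh and HT-Flx mice were heterozygous for a germline truncating allele of Arid1b, a subunit gene of the SWI/SNF chromatin remodeler, made at exon 5 with Cas9 nickase in a single line. From P3 to P21 the nursing dams of all groups drank 0.2% saccharin in water, which for WT-Flx and HT-Flx also held fluoxetine, a serotonin reuptake inhibitor, at 0.1 mg/ml, so that the pups were dosed through milk. Bulb-rich samples made up 3 of 4 in WT-Flx, 1 of 4 each in WT-Veh and HT-Veh and 0 of 4 in HT-Flx.

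The olfactory bulb lies directly in front of the prefrontal cortex. Axons of olfactory sensory neurons enter its glomeruli, where they contact mitral and tufted cells, the glutamatergic output neurons, and periglomerular interneurons, some of which make dopamine in the adult. Below lie granule cells, axonless GABAergic neurons that are replenished through life by neuroblasts migrating from the ventricular wall, while ensheathing glia accompany the incoming axons.

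The deposited table held 18424 genes, and 17566 of them, without Eomes, reached a value of 10 in at least 4 samples. The values are read counts estimated per gene and divided by a normalization factor, so the sequencing depth is unknown. The totals of the 16 columns lay between 92.8% and 104% of their mean, with WT-Veh replicate 1 the lowest. Arid1b, the targeted gene, ranged from 1787 to 2831 in the vehicle and 1902 to 2433 in the fluoxetine group of WT mice, and from 1619 to 2005 and 1545 to 1671 in the corresponding HT groups, and its log2 difference between bulb-rich and bulb-poor samples was -0.02 ± 0.15 (SE). In bulk tissue, fewer cells of a type and less RNA per cell cannot be told apart.

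Between the 5 bulb-rich and the 11 bulb-poor samples, 80 genes were counted as higher, meaning that the values of both sets did not overlap and the means of log2(value + 1) differed by at least 1. They were 0.455% of the genes examined. Another 37 genes, or 0.211%, were counted as lower by the same rule. Both shares follow from a split made on Eomes and are given as a description. The median difference over all genes was 0.0036 on this scale, with an SD of 0.41. Of the 80 higher genes, 25 had fewer than 4 bulb-poor samples at a value of 10, and so were examined only because the bulb-rich samples carried them. The higher genes were mostly protein-coding (73 of 80), and 20 of them belonged to 16 lists of cell type markers. Among these list members, Tbx21, Slc6a3, Igfbpl1 and Prss56 were examined only because of the bulb-rich samples, so their place in the list counts was set by the choice of samples. Ms4a15, Adamts19, Scgn, Slc18a2, Chrna10, Chrnb4 and Chrna3, which are named below, were examined only for the same reason. So were S100a5 and Stoml3, also named below, which were not counted as higher. None of the 37 lower genes belonged to a list.

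Mitral and tufted cell genes stood farthest apart. Of the 7 members examined without Eomes, 5 were counted as higher and the other 2 did not overlap either, with a list median of 3.42 against 0.0036 for all genes. That median is the value of Tbx21, which was examined only because of the bulb-rich samples. Cdhr1 (chr14:37077857-37098347, GRCm38), a cadherin-related gene of mitral and tufted cells, was 3485 in WT-Veh replicate 1, 2993 in WT-Flx replicate 4, 1448 in WT-Flx replicate 2, 1239 in HT-Veh replicate 4 and 692 in WT-Flx replicate 1. The bulb-poor samples ran from 63.3 to 193, with a median of 90.0. All bulb-rich samples therefore lay above every bulb-poor sample, and the log2 difference was 4.08 ± 0.36 (SE). Tbx21, the second T-box factor of these cells, was 234, 138, 56.1, 88.7 and 46.9 in the same order of samples, against 4.66 to 12.6 in the bulb-poor samples. The order of the bulb-rich samples thus differed slightly between genes, with HT-Veh replicate 4 above WT-Flx replicate 2 for Tbx21 and below it for Cdhr1.

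Other output neuron genes followed. Doc2g, which encodes a C2-domain protein, was 2661, 1505, 632, 644 and 524 in that order, and 53.2 to 103 in the bulb-poor samples (log2 difference 3.60 ± 0.32). Shisa3, a membrane protein gene, differed by 3.87 ± 0.37, with values of 118 to 647 against 10.9 to 27.9. Nmb, the neuropeptide gene neuromedin B, differed by 2.50 ± 0.37. Reln and Slc17a6, which encode the secreted glycoprotein reelin and a vesicular glutamate transporter and are also active in cells outside the bulb, were set apart by less than 2-fold. Slc17a6 was 325 to 488 in bulb-rich and 201 to 297 in bulb-poor samples, a log2 difference of 0.61 ± 0.11. Lhx1 and Lhx5, the remaining 2 genes of the list, were not analysed here.

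**Figure D1:**
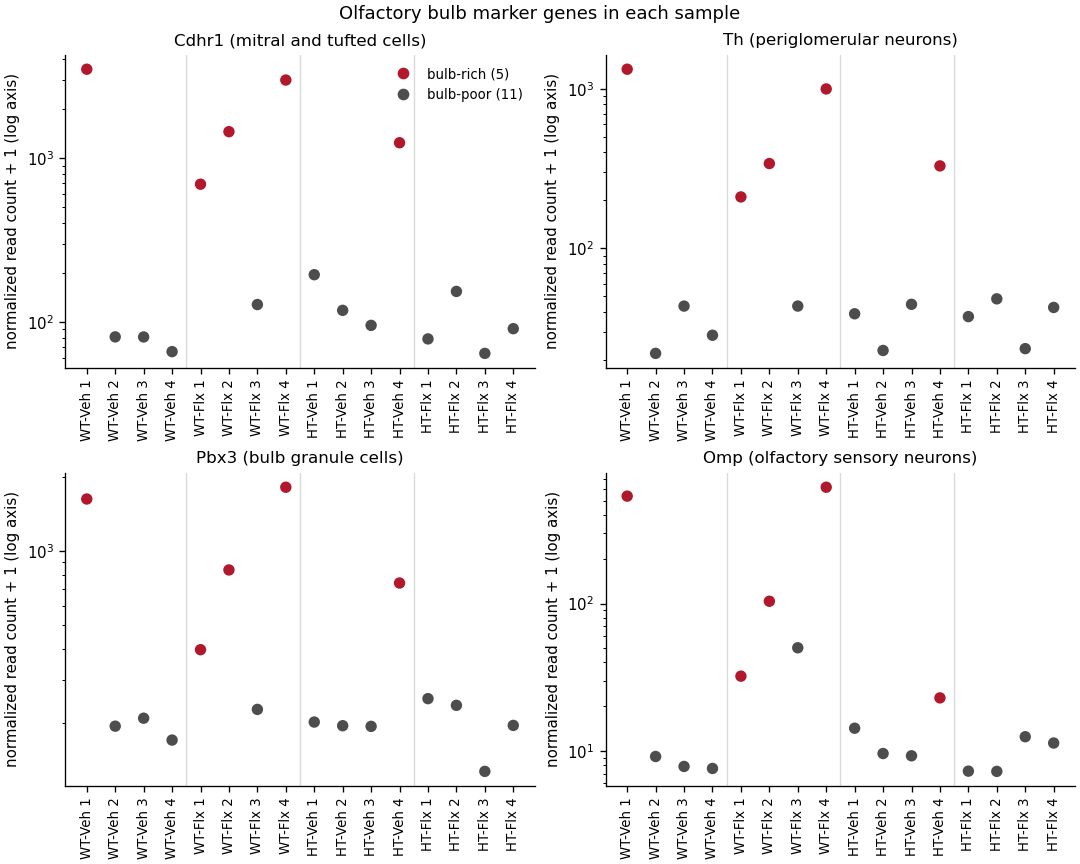
Normalized read counts plus 1 (log axis) of Cdhr1, Th, Pbx3 and Omp in each of the 16 samples, grouped by genotype and treatment, with the 5 bulb-rich samples in red. Cdhr1, Th and Pbx3 separate all red points from the grey ones, whereas Omp in WT-Flx replicate 3 (49.1) lies above the red points of WT-Flx replicate 1 (31.1) and HT-Veh replicate 4 (21.9).

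Periglomerular neuron genes gave a divided picture. Of 10 members, 5 were counted as higher, Th, Slc6a3, Trh, Sp8 and Calb2, and the list median was 1.81. Slc6a3 was examined only because the bulb-rich samples carried it. Th (chr7:142892752-142931128, GRCm38), which encodes tyrosine hydroxylase, the rate-limiting enzyme of dopamine synthesis, was 1329 in WT-Veh replicate 1, 999 in WT-Flx replicate 4, 339 in WT-Flx replicate 2, 328 in HT-Veh replicate 4 and 209 in WT-Flx replicate 1. In the bulb-poor samples it ran from 20.9 to 47.2 with a median of 37.8, so the sets were well apart (log2 difference 3.86 ± 0.38). Slc6a3, the plasma membrane dopamine transporter, was 68.4, 60.4, 18.2, 27.9 and 16.8 in the same order, against 0 to 5.27 in the bulb-poor samples. Slc18a2, the vesicular monoamine transporter, was chosen after its values were seen and was 71.1, 66.1, 20.0, 18.1 and 16.1, against 0.914 to 11.01. For Th, Slc6a3 and Slc18a2, each bulb-rich sample thus lay above every bulb-poor sample. Ddc and Gch1, further list members linked to dopamine synthesis, were not counted as higher.

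Calb2, which encodes the calcium-binding protein calretinin, was 3601, 2739, 1341, 1333 and 1003 in the same order and 162 to 337 in the bulb-poor samples. Trh, the gene for the thyrotropin-releasing hormone precursor, was 133 to 520 against 11.8 to 30.4, a log2 difference of 3.50 ± 0.33, and Sp8, a zinc finger factor of bulb interneurons, differed by 2.98 ± 0.38. Calb1 and Etv1, which are used as periglomerular markers within the bulb, did not separate the samples. Calb1, the calbindin gene, was 3008 to 4221 in bulb-rich and 3223 to 4409 in bulb-poor samples, a log2 difference of -0.07 ± 0.09, and Etv1 differed by -0.04 ± 0.10. The bulb-poor medians of Calb1 and Etv1 were 3690 and 2720.

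Promoters are shown for Cdhr1, Th, Slc6a3 and Slc18a2 as examples of genes counted as higher. The sequences are the 250 bases before the RefSeq start (GRCm38.p6), given 5′ to 3′ on the coding strand. Capitals mark AGGTGT or its reverse complement ACACCT, the core of the site bound by T-box factors such as Eomes and Tbx21.
Cdhr1, chr14:37098348-37098597, minus strand: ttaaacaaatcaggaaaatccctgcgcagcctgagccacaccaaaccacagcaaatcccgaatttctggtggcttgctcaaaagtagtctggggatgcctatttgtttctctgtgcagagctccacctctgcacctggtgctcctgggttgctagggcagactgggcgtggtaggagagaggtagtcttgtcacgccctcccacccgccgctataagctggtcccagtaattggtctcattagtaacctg
Th, chr7:142899996-142900245, minus strand: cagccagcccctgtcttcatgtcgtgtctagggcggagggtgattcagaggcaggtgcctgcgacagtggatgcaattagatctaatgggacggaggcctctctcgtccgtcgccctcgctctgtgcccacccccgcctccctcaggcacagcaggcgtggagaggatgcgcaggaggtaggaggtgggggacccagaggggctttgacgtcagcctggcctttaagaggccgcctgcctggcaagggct
Slc6a3, chr13:73536497-73536746, plus strand: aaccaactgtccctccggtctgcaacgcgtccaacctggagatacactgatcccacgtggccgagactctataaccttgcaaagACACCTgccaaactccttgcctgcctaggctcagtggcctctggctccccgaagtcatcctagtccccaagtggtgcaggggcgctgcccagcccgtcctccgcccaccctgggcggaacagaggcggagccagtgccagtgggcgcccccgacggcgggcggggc
Slc18a2, chr19:59260628-59260877, plus strand: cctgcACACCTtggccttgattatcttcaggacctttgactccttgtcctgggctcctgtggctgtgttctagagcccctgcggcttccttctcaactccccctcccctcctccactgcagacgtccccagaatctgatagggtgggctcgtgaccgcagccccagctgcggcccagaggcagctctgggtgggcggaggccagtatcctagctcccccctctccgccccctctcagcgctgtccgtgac
The T-box core was present once in Slc6a3 (chr13:73536581-73536586) and once in Slc18a2 (chr19:59260633-59260638), and neither Cdhr1 nor Th held it in this window. RefSeq promoters were matched for 45 of the 80 higher genes. The T-box core was found on either strand in 9 of these 45 (20.0%), among them Doc2g, compared with 12.0% of 27025 mouse promoters of the same length. TAATTA, a homeodomain core that is its own reverse complement and does not overlap the T-box core, was found in 0 of 45 and in 4.90% of all promoters. These matches describe letters in a window and not binding.

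Granule cell genes were higher as well, by smaller amounts. All 12 members had a positive difference, 6 were counted as higher and the list median was 1.01. Pbx3, a homeobox gene, was 1629 in WT-Veh replicate 1, 1820 in WT-Flx replicate 4, 837 in WT-Flx replicate 2, 741 in HT-Veh replicate 4 and 396 in WT-Flx replicate 1, against 126 to 250 in the bulb-poor samples (log2 difference 2.25 ± 0.29). Of the Dlx family, homeobox factors of GABAergic forebrain neurons, 4 members were also counted as higher, and the log2 differences were 1.48 for Dlx1, 1.46 for Dlx5, 1.37 for Dlx2 and 1.01 for Dlx6. Tshz1, another factor of granule neurons, differed by 1.01 ± 0.18. For Pbx3 and Dlx1 the highest sample was WT-Flx replicate 4 and not WT-Veh replicate 1. The other members, Meis2, Synpr, Tpbg, Prokr2, Gad1 and Gad2, all overlapped between the sets. Gad1 and Gad2 encode the GABA-synthesizing enzymes of interneurons in both bulb and cortex. Gad2 was 3829 to 6401 in bulb-rich and 4144 to 5179 in bulb-poor samples, a log2 difference of 0.24 ± 0.09.

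Genes of migrating neuroblasts were mostly not separated. Only Igfbpl1, which encodes an insulin-like growth factor-binding protein-like protein, was counted as higher among the 10 members, with values of 25.4 to 91.0 against 0.792 to 24.96, so that the lowest bulb-rich and the highest bulb-poor sample nearly met. The list median was 0.46. Dcx, the doublecortin gene, was 1051 to 2776 in bulb-rich and 1181 to 2178 in bulb-poor samples. Ccnd2, a cyclin gene, had the lowest difference, -0.17 ± 0.12.

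Among ensheathing glia genes, 2 of 6 were counted as higher and the median was 0.49. Fabp7, the brain lipid-binding protein gene of ensheathing glia and of other glia, was 1726, 1387, 494, 415 and 490 in order of falling Eomes, against 169 to 271. Prss56, a serine protease gene, was 12.3 to 44.0 against 0 to 5.39. Matn2, an extracellular matrix gene, differed by 0.07 ± 0.13.

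Genes of olfactory sensory neurons, whose cell bodies lie in the nose and whose axons reach the bulb, were set in another order. None of the 7 members was counted as higher, since the values of each overlapped, although the median was 0.98. S100a5 and Stoml3 were examined only because the bulb-rich samples carried them, so that median rests in part on the choice of samples. Omp, the olfactory marker protein gene, was 536 in WT-Veh replicate 1, 616 in WT-Flx replicate 4 and 103 in WT-Flx replicate 2, but 21.9 in HT-Veh replicate 4 and 31.1 in WT-Flx replicate 1. WT-Flx replicate 3, a bulb-poor sample, reached 49.1, and the other bulb-poor samples stayed at or below 13.2. S100a5, a calcium-binding protein gene of these neurons, was 427, 361 and 75.5 in the first 3 samples, 14.8 in HT-Veh replicate 4, 5.94 in WT-Flx replicate 1 and 24.0 in WT-Flx replicate 3. Stoml3, which encodes a stomatin-like protein of olfactory cilia, was 295 in WT-Flx replicate 4, 103 in WT-Veh replicate 1, 26.7 in WT-Flx replicate 2, 23.2 in HT-Veh replicate 4 and 7.60 in WT-Flx replicate 1, beside 28.7 in WT-Flx replicate 3. HT-Veh replicate 4 was thus near WT-Flx replicate 2 for Stoml3, but well below it for Omp and S100a5.

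**Figure D2:**
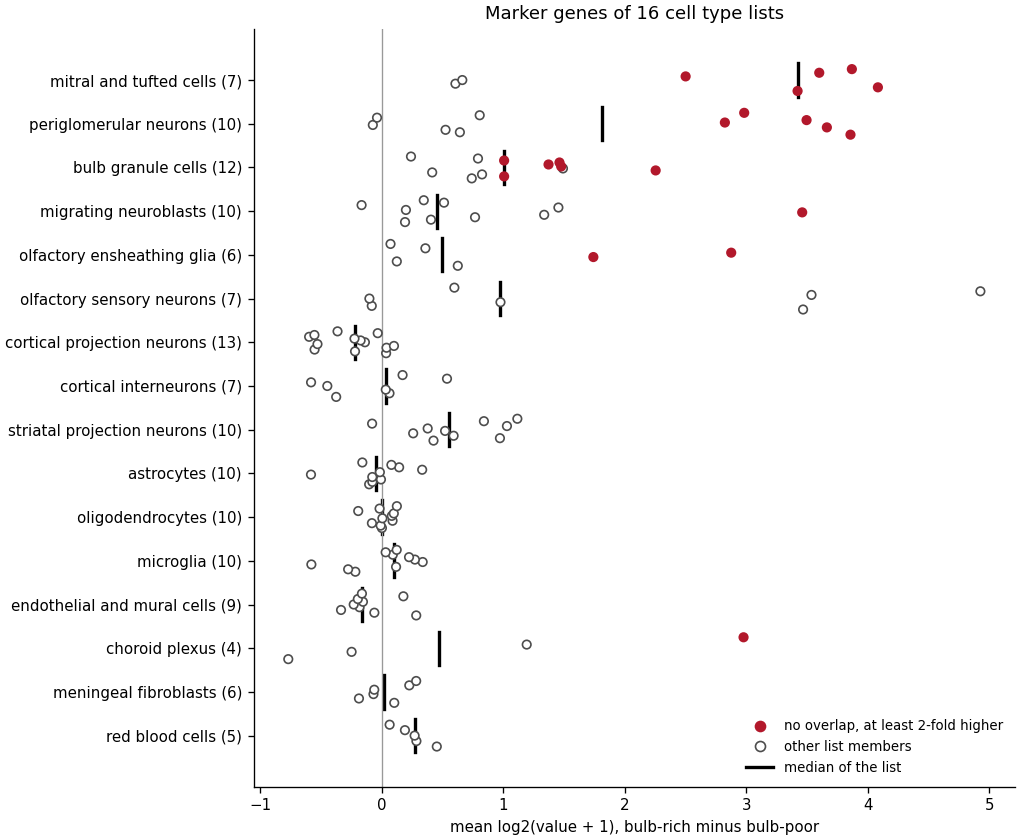
Difference in mean log2(value + 1) between the 5 bulb-rich and 11 bulb-poor samples for each marker gene of 16 cell type lists (number of genes in brackets), with list medians as black bars and genes counted as higher in red. The red points lie in the lists of mitral and tufted cells (median 3.42), periglomerular neurons (1.81), granule cells (1.01), neuroblasts, ensheathing glia and choroid plexus.

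The amount of bulb transcripts differed among the bulb-rich samples. For each higher gene, the value above the bulb-poor median was expressed as a percent of that in WT-Veh replicate 1, the sample with the most Eomes. The median over the 80 genes was 86.2% in WT-Flx replicate 4, 36.5% in WT-Flx replicate 2, 31.3% in HT-Veh replicate 4 and 19.9% in WT-Flx replicate 1. The quartiles were 74.3% and 102% in WT-Flx replicate 4 and 13.9% and 29.7% in WT-Flx replicate 1. WT-Flx replicate 3 had a median of 0.397%, at the level of the bulb-poor samples. WT-Veh replicate 1 held the highest value of all samples for 54 of the 80 genes and WT-Flx replicate 4 for 18, whereas WT-Flx replicate 1 was the lowest bulb-rich sample for 55.

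The list medians did not keep the same ratio across samples, although single genes of the lists overlapped. In WT-Flx replicate 4, the median was 66.8% for 5 mitral and tufted cell genes, 74.5% for 5 periglomerular genes and 102% for 6 granule cell genes. In WT-Flx replicate 1, the same medians were 17.3%, 22.1% and 13.6%, so the granule cell median came last there and first in WT-Flx replicate 4. Single granule cell genes ran from 69.0% to 123% in WT-Flx replicate 4 and from 8.91% to 24.5% in WT-Flx replicate 1. Mitral and tufted cell genes ran from 55.2% to 85.5% and from 15.8% to 22.8%, so the order of the lists rests on few genes with overlapping values. Omp reached 115% in WT-Flx replicate 4 and only 2.58% in HT-Veh replicate 4, where mitral and tufted cell genes stood at 29.5%. S100a5 was at 3.26% in HT-Veh replicate 4 and 1.17% in WT-Flx replicate 1, whereas Stoml3 was at 21.1% in HT-Veh replicate 4, near the lists of bulb neurons. With 1 sample per position and no repeated dissection, these ratios carry no replicate error.

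**Figure D3:**
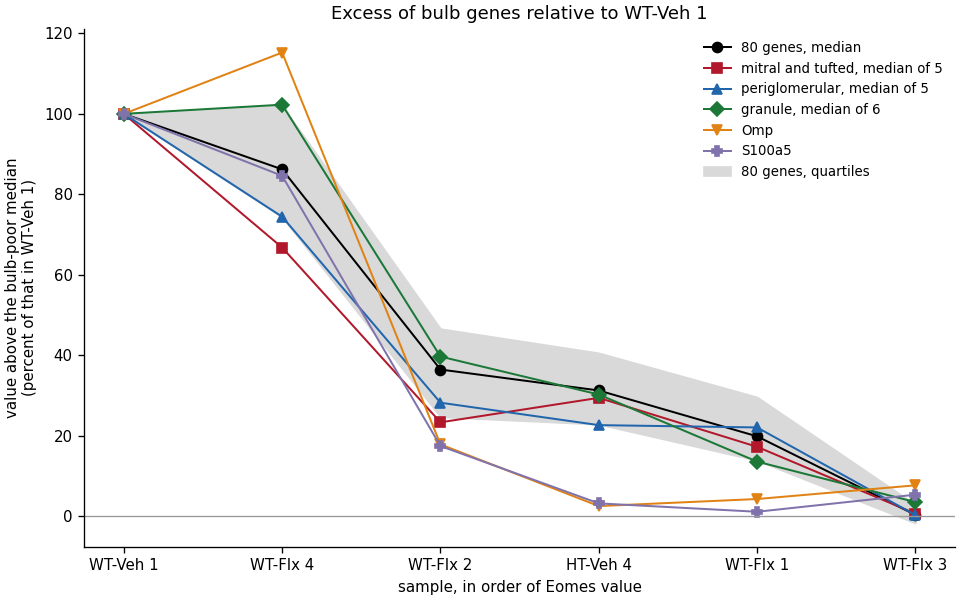
Value above the bulb-poor median, as a percent of that in WT-Veh replicate 1, for the 80 higher genes (black line, median; grey band, quartiles), for 3 cell type lists and for Omp and S100a5, in the 5 bulb-rich samples and WT-Flx replicate 3. Omp and S100a5 fall to 2.58% and 3.26% in HT-Veh replicate 4, while the neuronal lists stay between 22.7% and 30.3%.

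The higher genes with the greatest differences were not limited to the listed markers. Ms4a15, of the MS4A membrane protein family, was 778, 723, 247, 191 and 165 in order of falling Eomes, and 0 to 9.51 in the bulb-poor samples, which gave a log2 difference of 7.23 ± 0.69. Scgn, which encodes the calcium sensor secretagogin of bulb interneurons, was 359, 311, 114, 130 and 51.3, against 0.941 to 6.29. All 5 bulb-rich samples lay above the bulb-poor range for both genes. Adamts19, a secreted metalloprotease gene, differed by 5.33 ± 0.60, and Frmd7, a FERM-domain gene, by 4.37 ± 0.44. Vipr2, the gene of a receptor for vasoactive intestinal peptide, differed by 3.66 ± 0.48, Ppm1j, a phosphatase gene, by 3.29 ± 0.31 and Sp7, a zinc finger factor, by 3.25 ± 0.43.

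Some further groups were picked out after their values were seen. Nicotinic acetylcholine receptor subunits were on both sides: Chrna10, Chrnb4 and Chrna3 differed by 4.55, 3.24 and 2.99, whereas Chrnb3 differed by -1.02. Chrna3 was 79.4, 81.5, 56.6, 48.6 and 28.3 in order of falling Eomes and 1.44 to 12.9 in the bulb-poor samples. Chrna3 and Chrnb4 are neighbours on chromosome 9. Lgr5 and Lgr6, which encode receptors for R-spondins in Wnt signaling, were 179 to 1155 and 175 to 1000 in bulb-rich samples, against 54.1 to 111 and 51.7 to 148. Meis1, a homeobox gene, differed by 2.18 ± 0.26.

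Cortical markers were lower or overlapped. Of 13 genes of cortical projection neurons, 10 had a negative difference, none was counted as lower and the median was -0.22. Their summed values were 66825 to 83354 in bulb-rich and 85371 to 99545 in bulb-poor samples and did not overlap, with Slc17a7, the main vesicular glutamate transporter of cortex, as the largest term. Rasgrf2, a guanine nucleotide exchange factor gene of upper layers, was 4384, 4789, 6084, 5709 and 4082 in order of falling Eomes, against 6273 to 9189 (log2 difference -0.60 ± 0.11). Tle4, a deep-layer gene, differed by 0.10 ± 0.09. Cortical interneuron genes had a median of 0.03, running from -0.58 for Sox6 to 0.54 for Cort.

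Most of the remaining lists showed little separation. List medians were -0.05 for astrocytes, 0.0027 for oligodendrocytes, 0.10 for microglia, -0.16 for endothelial and mural cells, 0.02 for meningeal fibroblasts and 0.27 for red blood cells, and none of their genes was counted as higher or lower. Slc1a2, the astrocytic glutamate transporter, was lowest among astrocyte genes, at 55805 to 101235 in bulb-rich and 98379 to 155956 in bulb-poor samples. Csf1r, a receptor gene of microglia, did not overlap (-0.58 ± 0.11). The 4 choroid plexus genes had a median of 0.47, with 2 of them positive. Aqp1, a water channel gene of this list, was counted as higher with 53.7 to 286 against 7.12 to 34.7. Ttr, the defining transcript of choroid plexus, overlapped and was low, at 3.08 to 33.1 in bulb-rich and 5.38 to 243 in bulb-poor samples.

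Striatal genes varied in yet another order. The 10 markers of striatal projection neurons had a median of 0.56, with none counted as higher. Their sum was greatest in HT-Veh replicate 4 (19423) and least in WT-Veh replicate 1 (4735), while WT-Flx replicates 1 and 2 were at 12624 and 12468 and the bulb-poor samples at 6120 to 13168. Drd2, the dopamine D2 receptor gene, was 607 in HT-Veh replicate 4 and 33.6 in WT-Veh replicate 1, and Adora2a, an adenosine receptor gene of the same neurons, was 747 and 78.1. The sample with the most Eomes thus had the smallest striatal sum of all 16. The part of striatal tissue in other differences between samples was not tested.

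Few of the 37 lower genes were annotated as protein-coding. Protein-coding genes made up 10 of the 37, which was 0.0671% of the 14900 coding genes examined, compared with 1.01% of the 2666 others. Among the others, 18 were of the TEC class, GENCODE loci whose coding status is still to be settled by experiment. In 17 of the 37, fewer than 4 bulb-rich samples reached a value of 10. Snhg14 (chr7:59307924-59975759, GRCm38), a long noncoding host of small nucleolar RNAs that runs antisense to Ube3a, was 3446 in WT-Veh replicate 1, 5230 in WT-Flx replicate 4, 8250 in WT-Flx replicate 2, 7167 in HT-Veh replicate 4 and 2798 in WT-Flx replicate 1, against 9734 to 13910 in the bulb-poor samples (log2 difference -1.26 ± 0.21). It was chosen after its values were seen.

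Among coding genes with a mean of at least 100 in either set, those with the greatest negative differences and no overlap were the following. Kcng3, a modulatory potassium channel subunit gene, was 19.0, 44.5, 72.4, 57.9 and 16.5 in order of falling Eomes, against 81.8 to 147 (log2 difference -1.61 ± 0.30). Col19a1, a collagen gene, was 311, 530, 833, 782 and 380, against 881 to 1522 (-1.20 ± 0.20). Both genes were lowest in WT-Veh replicate 1 and WT-Flx replicate 1. Shc3, a neuronal adaptor gene, differed by -1.05 ± 0.20. Map3k9, a kinase gene, and Kcnj6, a G protein-gated potassium channel gene, were just short of the limit, at -0.99 and -0.94. Gm21093, L3mbtl1, Mrvi1, BC030499 and Fstl4 lay between -0.92 and -0.79. Below that mean, the olfactory receptor gene Olfr560 and the vomeronasal receptor gene Vmn2r85 were counted as lower as well, Olfr560 at -2.12. Both belong to large families whose members can share reads.

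The lower genes did not follow the amount of bulb transcripts. Relative to the bulb-poor median, they stood at a median of 19.9% in WT-Flx replicate 1, which had the least bulb RNA of the 5, and at 22.6% in WT-Veh replicate 1, which had the most. The other bulb-rich samples were at 43.2% (WT-Flx replicate 4), 53.8% (HT-Veh replicate 4) and 63.3% (WT-Flx replicate 2). The lowest value of all samples was in WT-Flx replicate 1 for 19 of the 37 genes and in WT-Veh replicate 1 for 17. When both were left out, 21 genes were counted as lower, and when only WT-Flx replicate 2 was left out, 125. Transcripts of genes not annotated as coding were together 6.50% of the total in WT-Flx replicate 1, 6.03% in WT-Veh replicate 1 and at most 6.57% (WT-Flx replicate 4), against 5.17% to 6.27% in the bulb-poor samples, and mitochondrial transcripts were 9.53% and 9.06% in the first 2, against 8.94% to 12.0%. The part of RNA quality in the lower genes was not tested.

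**Figure D4:**
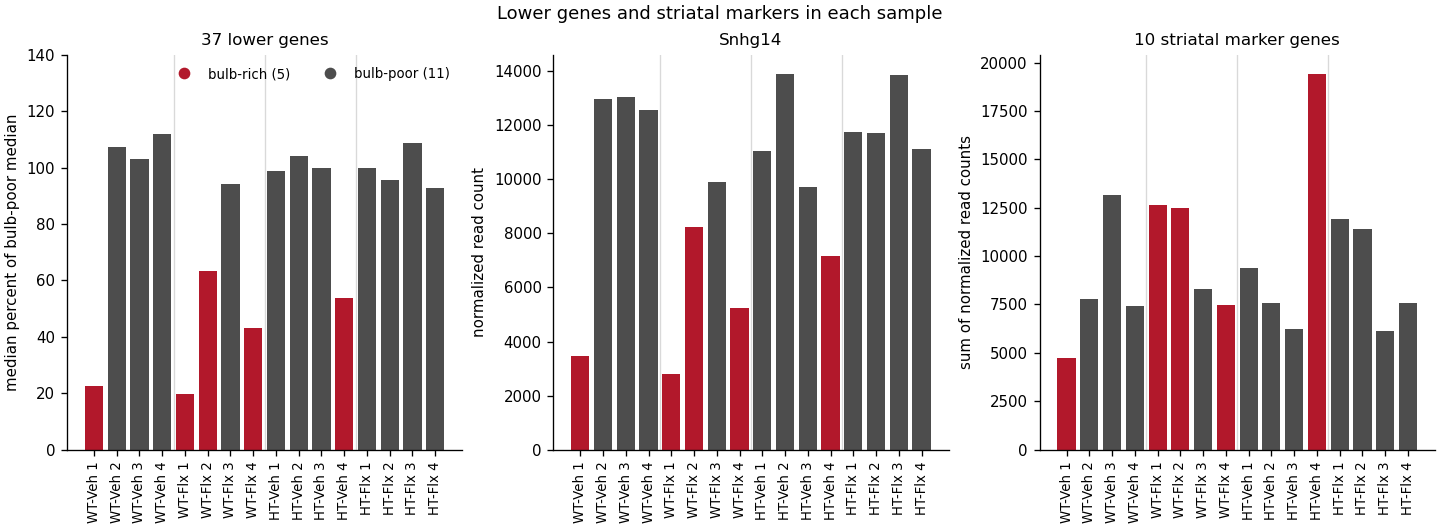
The 37 lower genes (median percent of the bulb-poor median), Snhg14 (normalized read count) and the summed normalized read counts of 10 striatal marker genes in each of the 16 samples, with the 5 bulb-rich samples in red. The lower genes are lowest in WT-Flx replicate 1 (19.9%) and WT-Veh replicate 1 (22.6%), and the striatal sum is highest in HT-Veh replicate 4 (19423).

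Whether bulb-rich samples were spread evenly over the study groups was tested next, since genotype and drug had no part in the split. Bulb-rich samples numbered 1 of 8 HT and 4 of 8 WT mice (two-sided Fisher exact test, p = 0.282, adjusted over 2 tests 0.564). They numbered 3 of 8 fluoxetine and 2 of 8 vehicle mice (two-sided Fisher exact test, p = 1). Neither difference passed. With 5 of 16 samples the smallest p such a test can give is 0.0256, and after adjustment over both tests no allotment could have passed 0.05, so these tests say nothing about evenness.

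The genes of the split were then followed in 2 comparisons of the study, which share their samples with the split and with each other. In HT versus WT mice over both treatments, limma with treatment as a covariate gave 7 of 17567 genes past an adjusted p of 0.05 (0.0398%), and none of the 80 higher genes passed (smallest adjusted p 0.288). At an unadjusted p under 0.05, 25 of the 80 were lower in HT, beside 5.44% of all genes. The log2 difference was negative for all 80, with a median of -0.93 against 0.0044 over all genes. Since the 80 genes were chosen for being high in 5 samples, 4 of them WT, this direction follows from the choice and is given as a description. Cdhr1 differed by -1.45 ± 0.87 (SE), with means of 927 ± 1705 (SD, n = 4) and 1315 ± 1243 for vehicle and fluoxetine in WT mice, and 411 ± 554 and 95.9 ± 39.3 for the same treatments in HT mice. The SD exceeded the mean in WT-Veh and HT-Veh, where a single mouse was bulb-rich. Without the 5 bulb-rich samples, the median of the 80 genes was -0.02 and 43 of 80 were negative, and Cdhr1 was at 0.34. For the 37 lower genes the median was 0.65 in HT minus WT with all samples and -0.01 without the bulb-rich ones. Both gene sets were chosen by a difference that the left-out samples carried, so these moves follow from the choice as well. Of WT-Flx, only replicate 3 remained in that fit.

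Arid1b itself was lower in HT by 0.39 ± 0.08 on the log2 scale, with an adjusted p of 0.0969 from limma. Without the bulb-rich samples it was lower by 0.46 ± 0.06, in a fit that held only replicate 3 of WT-Flx. Of the cortical projection neuron list, 1 gene passed in HT versus WT. It was Otof, a calcium sensor gene of upper layers, which was chosen after its values were seen, and it was higher in HT by 0.74 ± 0.10 (limma adjusted p = 0.00556). Otof overlapped between bulb-rich and bulb-poor samples, with a log2 difference of -0.55 ± 0.19.

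HT-Flx versus WT-Flx set 0 of 4 against 3 of 4 bulb-rich samples. Of 16788 genes, 7 passed by limma (0.0417%). The filter kept 59 of the 80 higher genes, all of which had a negative difference, with a median of -1.37. None of the 59 passed (smallest adjusted p 0.272), although 51 were lower in HT-Flx at an unadjusted p under 0.05, beside 4.87% of all genes, a direction that the choice of genes also sets. Cdhr1 differed by -3.10 ± 0.72 (limma adjusted p = 0.289) and Th by -2.69 ± 0.70 (limma adjusted p = 0.299). WT-Flx replicate 3, the bulb-poor mouse of its group, decided these calls. Without it, 14 of the 59 passed, including Cdhr1 at -3.98 ± 0.41, Th at -3.50 ± 0.44, Doc2g at -3.39 ± 0.32 and Calb2 at -2.29 ± 0.26, and 23 of 16619 genes passed in all. The 3 remaining WT-Flx samples were all bulb-rich and the HT-Flx samples all bulb-poor, so those passes restate the choice of samples and genes, and bulb content and genotype cannot be told apart in that fit.

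**Figure D5:**
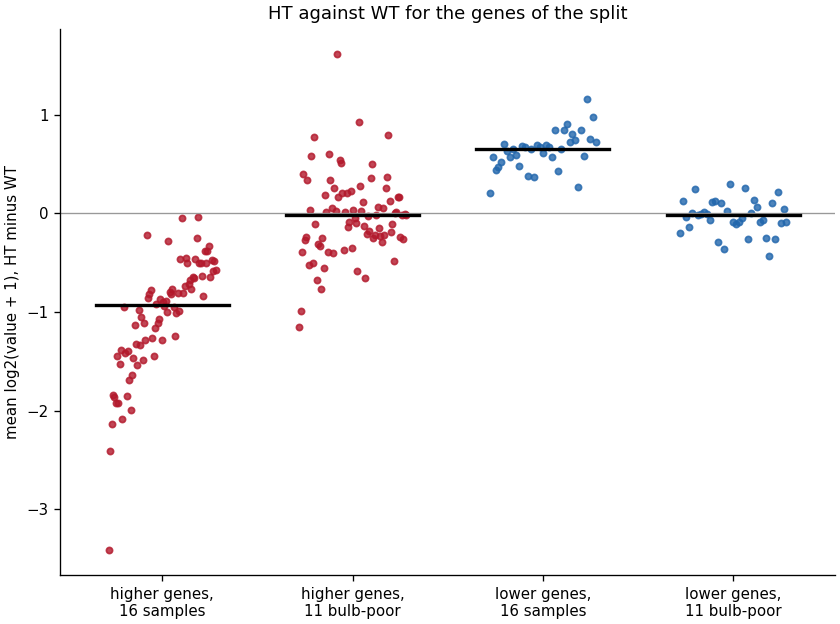
Difference in mean log2(value + 1), HT minus WT with treatment as a covariate, for the 80 higher and 37 lower genes, with all 16 samples and with the 11 bulb-poor samples (points, genes; bars, medians). The medians move from -0.93 to -0.02 for the higher genes and from 0.65 to -0.01 for the lower genes. The left-out samples chose these genes, so the move is a description.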

How the data were processed

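RNA from the mPFC of 16 mice was sequenced from stranded poly-A libraries. Per the labels and methods, the authors quantified transcripts with Salmon (1.1.0) against GRCm38, and the authors then summed them by gene and scaled them in DESeq2 (1.30.1). What they deposited is a signal, the estimated reads of a gene over a scaling factor. Replicates were not pooled. Reads could not be recovered, because 14.9% to 48.1% of low values per sample were whole multiples of a common step (tolerance 0.1), so depth is unknown and no counting interval is given. A value of 0 means only that a gene is listed at 0.

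Values were analysed as log2(value + 1), which understates differences of low genes, over genes that reached 10 in 4 or more samples of a fit. Symbols were matched by identifier for 18411 of 18424 genes (GENCODE, GRCm38). For bulb-rich minus bulb-poor, limma (3.58.1, R 4.3.3) gave differences and SEs only. The 2 study comparisons were tested with limma (trend, two-sided, Benjamini-Hochberg over all genes tested, threshold 0.05), with treatment as covariate in HT versus WT. The share of bulb-rich samples was compared between genotypes and between drug groups by Fisher exact test. The scripts were tested on simulated data. Each title is taken as 1 mouse. If samples shared more than a group, p-values would measure only the spread between them.

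Genes named were Eomes, Cdhr1, Th and Arid1b, the 15 coding genes with the greatest positive and the 10 with the greatest negative difference among genes that did not overlap and had a mean of at least 100 in either set, and for each of 16 marker lists (141 genes) the members with the greatest and least difference and any counted as higher or lower. Further genes are named as examples of their lists, and others are stated to be chosen after their values were seen. The sample split, gene lists and tests were chosen with earlier results of these data known. Alternatives were other pseudocounts, filters, scalings, cutoffs, covariates and left-out samples.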

Additional observations from a re-analysis of the deposited data

Results flagged for a closer look

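Within each group of 4 mice, the gap between the most extreme sample and its neighbour was compared with the whole range of the group on the log2(value + 1) scale, against the 95% critical value of Dixon's test for groups of 4. The ratio of gap to range is given in parentheses. Chance passes the critical value in about 1 of 20 groups, a rate for values that had no part in the choice of genes or samples. For 6 genes and the mean of each of 16 marker lists, 18 of 88 tests exceeded it (20.45%), and over the 80 named genes 55 of 320 did (17.2%). Eomes, which chose the samples, was among the 6 genes, and many named genes were picked because they set the bulb-rich samples apart. WT-Veh replicate 1 and HT-Veh replicate 4 were each the only bulb-rich mouse of their group. Both shares and the flags on these mice therefore follow largely from the choice and are given as a description.

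WT-Veh replicate 1 stood apart most often. It was the highest of its group for Cdhr1 (0.948), Th (0.834) and Omp (0.956), and the lowest for Snhg14 (0.971). It was also the highest for the list means of mitral and tufted cells (0.930), periglomerular neurons (0.967), granule cells (0.918), neuroblasts (0.844), ensheathing glia (0.846) and sensory neurons (0.852), and the lowest for cortical projection neurons (0.919).

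HT-Veh replicate 4 was the highest of its group for mitral and tufted cells (0.855), periglomerular neurons (0.935), granule cells (0.961) and ensheathing glia (0.863). It was the lowest for cortical projection neurons (0.893) and red blood cells (0.892).

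HT-Flx replicate 4 had the lowest Arid1b value of its group (0.924). Among the named genes, WT-Veh replicate 1 was the sample past the value for 36 and HT-Veh replicate 4 for 14 of the 55, while no WT-Flx sample, where 3 of 4 were bulb-rich, passed it for any.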

How the results depend on the processing

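The count of lower genes depended most on the settings. It was 24 with a pseudocount of 8, 9 among genes with a mean of at least 100, 2 with a log2 difference of at least 2, 10 with WT-Flx replicate 3 counted as bulb-rich and 21 without WT-Veh replicate 1 and WT-Flx replicate 1, a choice made after seeing the data. The count of higher genes was 33 for the mean and 46 for the log2 limit, both of which narrow the rule by construction. It was 15 with WT-Flx replicate 3 counted as bulb-rich. The median excess of that sample over the 80 higher genes was 0.397%, so the rule of no overlap loses genes there by construction as well. Leaving out each sample in turn gave 67 to 118 higher and 31 to 125 lower genes, with 58 lower without HT-Veh replicate 4 and 125 without WT-Flx replicate 2.

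In HT versus WT without the 5 bulb-rich samples, the differences of Cdhr1, Th and Calb2 were 0.34, 0.033 and 0.50. That fit held only replicate 3 of WT-Flx, so no opposite effect is read from the change of sign. Leaving out each sample in turn gave 1 (without WT-Flx replicate 2) to 13 (without WT-Veh replicate 4) genes that passed. It gave 12 without WT-Flx replicate 1, and none of the higher genes passed in any of these. In HT-Flx versus WT-Flx, 4 passed with a pseudocount of 0.1, with quantile normalization and with all 4 groups in the fit, and 0 among genes with a mean of at least 100. Leaving out each sample gave 0 (without WT-Flx replicate 1, 2 or 4) to 23 (without WT-Flx replicate 3), and 0 to 14 of the higher genes. The cause of these shifts was not tested. With an Eomes cutoff of 200 the drug groups differed by 0 bulb-rich samples.

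Deviations of same-numbered samples correlated by 0.056 on average (24 pairs, -0.225 to 0.310). Those of different-numbered samples correlated by -0.017 (72 pairs, -0.462 to 0.359), so the ranges overlapped. For 7 of 16 samples the best correlation was with their own number. Whether the numbers pair the samples was not tested. With the replicate number as a block, 76 genes were higher and 34 lower, and 8 and 5 genes passed in the 2 study comparisons.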
